A study of Mus musculus with 20 samples.

Results

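The Slco genes encode the organic anion transporting polypeptides, membrane carriers that move thyroid hormones, prostaglandins, bile acids, steroid conjugates and many drugs across the plasma membrane. The deposited table of 51912 genes held 15 genes whose symbol starts with Slco, and the 7 described here are Slco1a4, Slco1c1, Slco2a1, Slco2b1, Slco3a1, Slco4a1 and Slco4c1. These 7 were chosen by their read counts in these libraries, with their levels in the 5 groups known. They are the 7 Slco genes with the most counts. The last of them is Slco1c1, with 1360 counts over the 20 libraries and at most 445 in 1 library. The next gene down, Slco5a1, had 160 counts and at most 58 in 1 library. All 7 had a count in at least 1 library and so passed the filter of the fit. Slco3a1, Slco4a1 and Slco4c1 had counts in all 20 libraries, whereas Slco2b1 had counts in 14, Slco2a1 in 9, Slco1a4 in 7 and Slco1c1 in 5.

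The libraries are RNA-seq libraries of neutrophils from wild-type C57BL/6 mice, either with pancreatic ductal adenocarcinoma or sham-treated. The mice were males and females, 7 to 12 weeks old. Tumor mice had received KPC cells, a mouse pancreatic cancer line from C57BL/6 tumors driven in the pancreas by Pdx1-Cre, and sham mice had received PBS. Live single cells high for CD11b and Ly6G were sorted 10 days after inoculation. There were 4 libraries from the blood of sham mice, and 4 each from the blood, brain, liver and tumor of tumor mice. No brain, liver or pancreas of sham mice was used here, so tissue and tumor cannot be told apart for the brain and the liver. Brain, liver and tumor were digested with enzymes and blood was not, which follows the same split between groups. Which libraries came from the same mouse is not stated, so the p-values below measure the spread between libraries.

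Members of this family carry organic anions without spending ATP directly. In mice, Slco1a4 and Slco1c1 are known from the endothelium of the blood-brain barrier, where the Slco1c1 protein carries thyroxine into the brain and the Slco1a4 protein carries bile acids, steroid conjugates and drugs. The Slco2a1 protein is the prostaglandin transporter, which takes prostaglandins into cells for breakdown. The Slco2b1 protein carries steroid sulfates. Of the remaining 3, the human SLCO3A1 and SLCO4A1 proteins carry prostaglandins or thyroid hormone, and SLCO4C1 is known in humans as a carrier of digoxin and thyroid hormone in the kidney.

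The sequences just upstream of the transcription start are shown for 4 members, a pair with counts almost only in the brain (Slco1a4 and Slco1c1) and a pair with counts in every library whose levels in brain and tumor lay in opposite order (Slco4c1 and Slco4a1). They are the 250 bases before the RefSeq start site on build GRCm38.p6, written 5′ to 3′ on the strand of the gene, with each CG pair in capitals. The Slco1a4 sequence lies on chromosome 6 at 141856221 to 141856470 on the minus strand. The Slco1c1 sequence lies on chromosome 6 at 141524104 to 141524353 on the plus strand. The Slco4c1 sequence lies on chromosome 1 at 96872172 to 96872421 on the minus strand. The first of the 2 Slco4a1 entries lies on chromosome 2 at 180455995 to 180456244 on the plus strand.
Slco1a4: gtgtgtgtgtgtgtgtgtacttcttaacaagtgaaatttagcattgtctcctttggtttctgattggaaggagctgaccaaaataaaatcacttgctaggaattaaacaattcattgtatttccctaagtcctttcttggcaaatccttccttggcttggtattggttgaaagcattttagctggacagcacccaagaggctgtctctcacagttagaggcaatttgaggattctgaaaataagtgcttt
Slco1c1: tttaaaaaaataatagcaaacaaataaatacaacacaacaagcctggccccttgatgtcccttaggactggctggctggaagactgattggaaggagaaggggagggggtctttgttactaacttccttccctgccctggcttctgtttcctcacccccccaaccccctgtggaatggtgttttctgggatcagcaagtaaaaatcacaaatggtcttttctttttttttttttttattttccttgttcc
Slco4c1: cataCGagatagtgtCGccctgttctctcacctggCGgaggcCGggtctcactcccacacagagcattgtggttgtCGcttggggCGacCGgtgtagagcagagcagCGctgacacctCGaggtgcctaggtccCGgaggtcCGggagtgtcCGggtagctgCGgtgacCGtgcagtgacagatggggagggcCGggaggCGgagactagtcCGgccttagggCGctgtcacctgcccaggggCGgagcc
Slco4a1: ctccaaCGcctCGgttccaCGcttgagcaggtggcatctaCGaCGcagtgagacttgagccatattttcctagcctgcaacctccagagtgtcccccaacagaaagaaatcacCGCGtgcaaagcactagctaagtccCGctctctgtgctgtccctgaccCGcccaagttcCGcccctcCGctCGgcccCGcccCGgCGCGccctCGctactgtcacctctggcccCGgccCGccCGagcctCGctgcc

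The pair from the brain libraries had no CG in these bases, and their GC content was 39.2% for Slco1a4 and 42.8% for Slco1c1. Both genes lie on chromosome 6, in opposite orientation. The Slco4c1 sequence held 19 CG pairs at a GC content of 66.4%, and the Slco4a1 sequence held 21 at 64.8%. Over all 32851 RefSeq promoters of this length the median was 6 CG pairs and 52.4% GC, 7.87% held none, and 19.7% held at least 19. A set of 5 short motifs were searched on both strands. GAGGAA, the core of the PU.1 motif of myeloid cells, occurs in 23.3% of all promoters and was found in Slco1c1 at bases -103 to -98 on the reverse strand, in Slco2a1 at -76 to -71 and in the third of the 3 Slco2b1 entries at -226 to -221. CTTTGA (TCF/LEF, in 13.8% of promoters), TTGCNNAA (C/EBP, 9.56%), ACGTG (the hypoxia response core, 16.6%) and TGACTCA (AP-1, 4.46%) were searched as well. No match of these 4 was found in the members, which says only that these letters are not in these windows. A RefSeq promoter was found for 6 of the 7 members, all but Slco3a1.

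On mm10 with GENCODE M21, Slco1c1 lies on chromosome 6 from 141524368 to 141570177 and Slco1a4 from 141805440 to 141856199. Slco2b1 and Slco3a1 lie on chromosome 7, from 99657804 to 99711340 and from 74275419 to 74554780. Slco2a1 spans 102988712 to 103096002 of chromosome 9, Slco4a1 spans 180456245 to 180474867 of chromosome 2, and Slco4c1 spans 96816270 to 96872171 of chromosome 1. All are protein-coding. Counting by strand is not stated, so reads of antisense genes cannot be told apart. The exons of Slco2b1 share 471 bases with the antisense gene Gm15635, which had 24 counts in all. Panct2 runs antisense to Slco4c1 with no shared exon base and had 7870 counts, against 58999 for Slco4c1. Of the 100-base windows of Slco1a4 transcripts, 0.64% also occur in Slco1a1 or Slco1a5, which had no counts.

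Libraries held 47388245 to 54472378 counts. Levels are given in CPM, counts scaled to the TMM-adjusted library size. The label of the sort was checked with Csf3r and Ly6g, markers of neutrophils. Csf3r was at 665.2 CPM or more in all 20 libraries, but Ly6g, the surface marker of the sort, was at 1.43 to 13.2 CPM in the tumor libraries against 228.6 to 471.6 in the brain libraries. The sum of 20 neutrophil markers was 14700 ± 6429 CPM in the tumor libraries (SD, n = 4) and 109300 ± 23980 in the brain libraries (SD, n = 4). Markers of other cells were also present. Krt8, of epithelium, was at 312.2 to 1054 CPM in the tumor libraries and at most 4.72 CPM in the brain libraries. In the brain libraries replicate 3 stood apart with 7397 CPM of 18 macrophage markers, against 1880 to 2819 in the other 3, and replicate 4 with 2410 CPM of 12 choroid plexus markers, against 39.4 to 134.3. In bulk libraries, more cells of a type and more RNA per cell cannot be told apart.

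The summed level of the family was highest in the brain libraries. Per length, the 7 members summed to 54.0 ± 7.45 CPM per kb of exon in the brain (SD, n = 4). The sums were 24.7 ± 4.02 in sham blood, 23.7 ± 6.25 in tumor mouse blood, 20.7 ± 4.61 in the liver and 21.0 ± 2.47 in the tumor (SD, n = 4 each). In both blood groups and the liver, Slco4c1, Slco3a1 and Slco4a1 made up nearly all of the sum. Slco4c1 alone was 45.1% ± 8.03 of it in sham blood and 61.8% ± 6.54 in tumor mouse blood. In the brain, Slco1a4 added 20.5% ± 12.3 and Slco2b1 16.4% ± 11 beside 45.6% ± 10.1 for Slco4c1. In the tumor, Slco4a1 was the leading member with 51.4% ± 9.34, Slco3a1 followed with 18.7% ± 3.27, and Slco4c1 was down to 13.3% ± 3.85 (SD, n = 4 each).

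**Figure D1:**
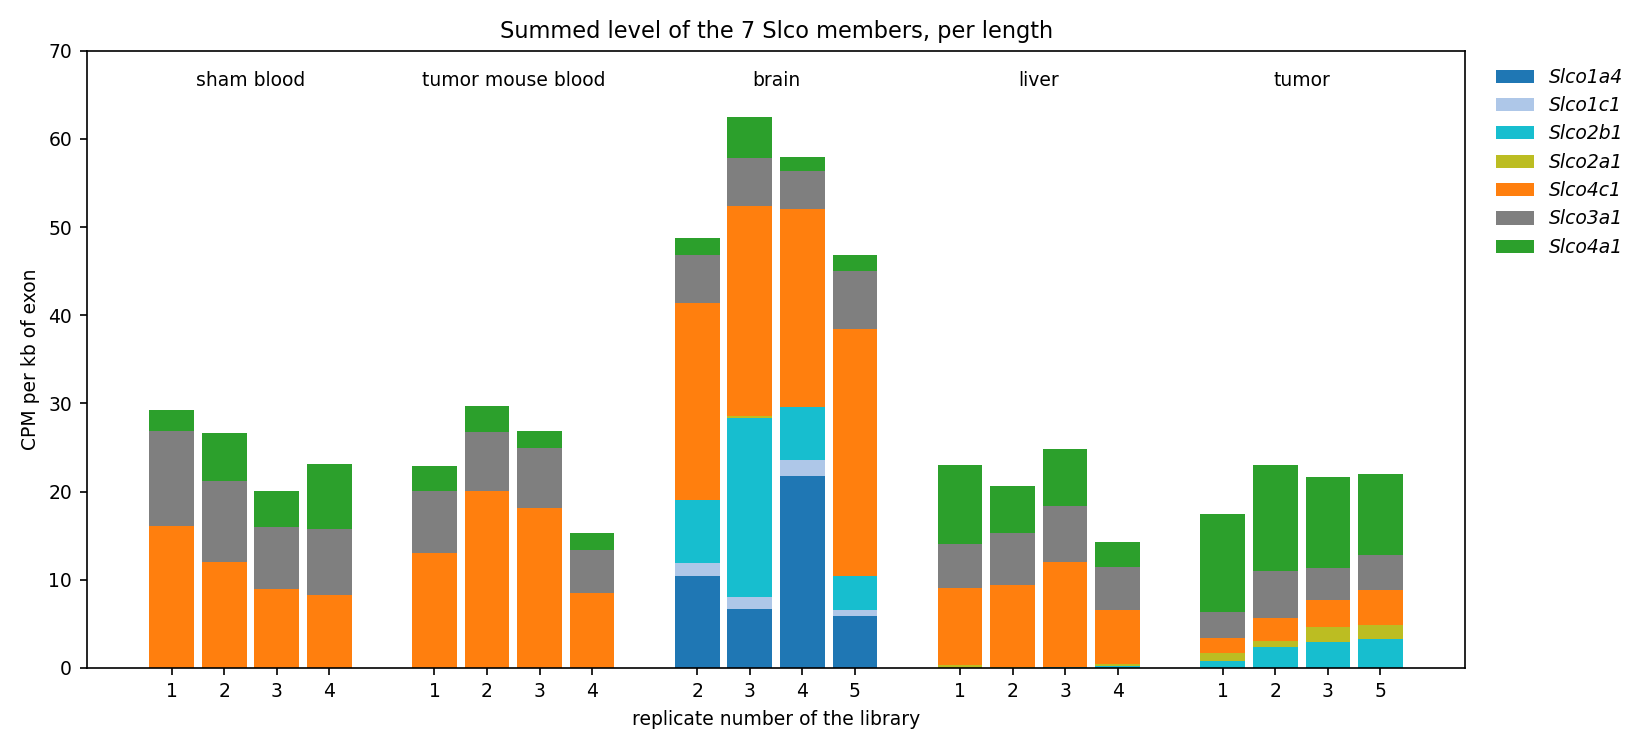
Level of the 7 members per length (CPM per kb of exon, vertical axis) in each of the 20 libraries, grouped by source, with replicate numbers on the horizontal axis and 1 color per gene. The 4 brain libraries are the tallest, and Slco4a1 is the largest block in all 4 tumor libraries.

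Slco1a4 was found almost only in the brain libraries. It was at 66.8, 42.5, 139.7 and 37.4 CPM in brain replicates 2, 3, 4 and 5, from 1733 to 6572 counts. Outside the brain it had 8 counts in the other 16 libraries, 3 in 1 sham blood library and 5 in 2 tumor libraries. No count of it was found in tumor mouse blood or in the liver. Against tumor mouse blood the brain level was at least 4430-fold higher, taking the blank group at 3 counts over its 4 libraries. It was at least 4480-fold higher than in the liver. The brain mean of 71.6 ± 47.2 CPM (SD, n = 4) became 48.9 ± 15.7 (SD, n = 3) without replicate 4.

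Slco1c1 followed the same split at a lower level. Brain replicates 2, 3, 4 and 5 had 7.51, 7.58, 9.46 and 4.04 CPM, from 187 to 445 counts, a mean of 7.15 ± 2.26 CPM (SD, n = 4). Elsewhere it had 1 count, in tumor mouse blood replicate 2. Per length, Slco1a4 was at 11.2 ± 7.36 CPM per kb in the brain and Slco1c1 at 1.38 ± 0.436 (SD, n = 4 each). Against the tumor and the liver, with no counts, the brain level of Slco1c1 was at least 641-fold and at least 451-fold higher. Against the 1 count of tumor mouse blood the ratio was 1340, with a 95% counting interval of 240 to 52900. Such intervals cover counting error only, since PCR copies are not separate molecules.

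Markers of endothelium and pericytes were present in the same libraries, and only some of them followed this pair. Cldn5, a tight junction protein of endothelium, was at 42.4, 12.2, 81.2 and 12.4 CPM in brain replicates 2, 3, 4 and 5, and at most 1.17 CPM in the other 16 libraries. It was highest in replicate 4, as Slco1a4 and Slco1c1 were. Mfsd2a, the other defining marker of brain endothelium, was at 5.38, 2.90, 4.34 and 6.72 CPM and was highest in replicate 5, where Slco1a4 and Slco1c1 were lowest. Of the defining pericyte markers, Rgs5 was at 26.2, 10.2, 34.2 and 8.95 CPM and Pdgfrb at 18.7, 3.37, 0.191 and 2.57 CPM, so that the first was highest and the second lowest in replicate 4. The 18 brain endothelium markers, all with counts in the brain, summed to 815.5, 635.3, 1256 and 707.9 CPM in the 4 brain libraries. Of these 18, 11 were called higher in the brain than in tumor mouse blood and none lower, beside 3.56% and 1.41% of all genes. In the tumor, where Slco1a4 had 5 counts and Slco1c1 none, 11 were likewise called higher than in tumor mouse blood and 1 lower. Of all genes, 13.3% and 10.3% were so called. For brain against tumor 5 of the 18 were called higher and 1 lower, beside 8.54% and 6.87% of all genes. Their summed level was 309.5 to 396.1 CPM in tumor mouse blood, 413.0 to 516.8 in the liver and 1012 to 1183 in the tumor. Bsg and Slc2a1 were most of the sum in the tumor, with means of 525.1 and 444.9 of 1107 CPM. In tumor mouse blood their means were 133.3 and 215.3 of 362.8 CPM. Bsg was the 1 marker called lower in the brain than in the tumor, with a brain mean of 208.2 CPM. Cldn5 and Ly6c1 were among the 5 called higher, with means of 37.0 and 79.1 CPM in the brain against 0.369 and 2.45 in the tumor. Transthyretin (Ttr), the thyroxine carrier of the choroid plexus, was at 18.3, 83.4, 1648 and 108.2 CPM in the brain libraries and at most 2.33 CPM elsewhere. Their part in the levels of Slco1a4 and Slco1c1 was not tested.

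**Figure D2:**
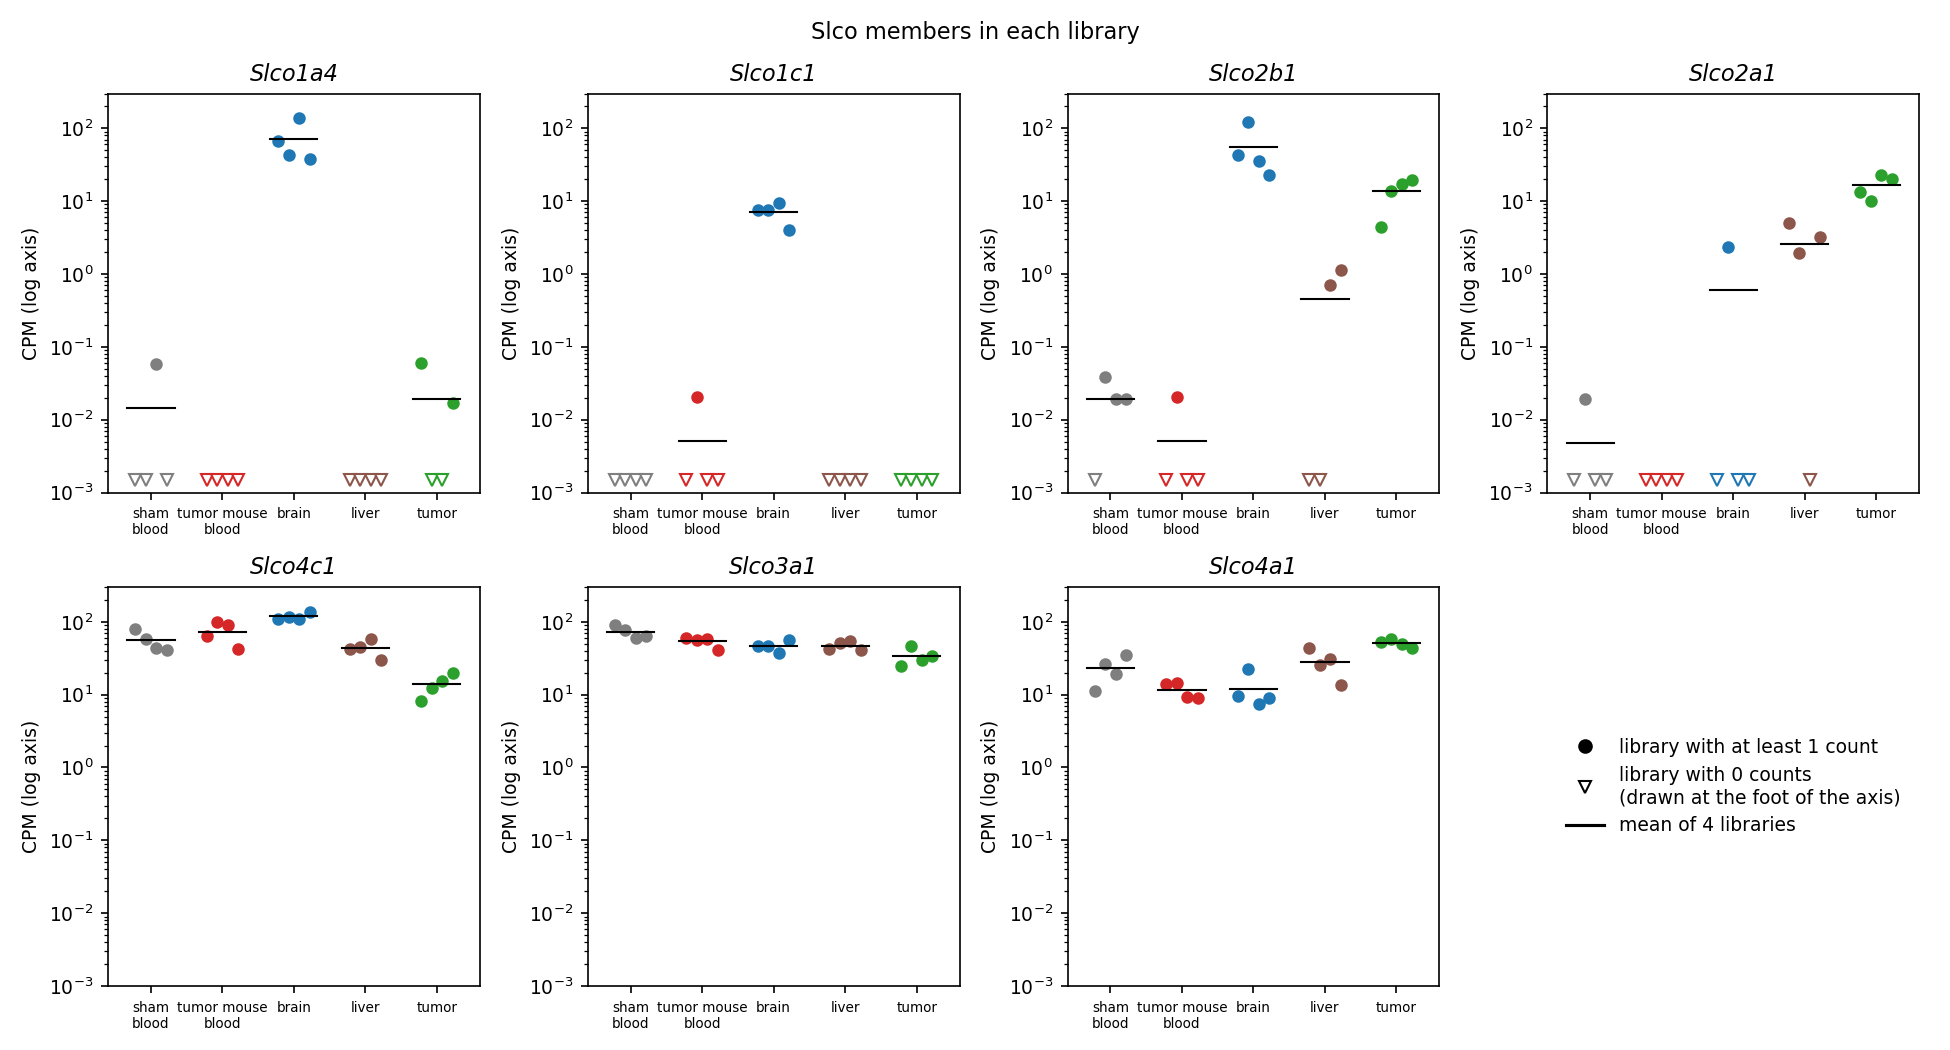
CPM of each member (log axis) in the 20 libraries by group; filled points are libraries with counts, open triangles libraries with 0 counts drawn at the foot of the axis, and lines the means of 4 libraries. Slco1a4 and Slco1c1 stand high in the brain column of their panels, while Slco4c1 and Slco4a1 have points in all 5 groups in nearly opposite order.

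Slco2b1 was high in the brain and in the tumor. The brain replicates 2, 3, 4 and 5 had 42.6, 120.9, 35.9 and 22.6 CPM, a mean of 55.5 ± 44.4 (SD, n = 4). Tumor replicates 1, 2, 3 and 5 had 4.38, 13.9, 17.3 and 19.7 CPM, a mean of 13.8 ± 6.74 (SD, n = 4). All 4 brain libraries lay above all 4 tumor libraries, though brain replicate 5 and tumor replicate 5 were close. In the liver only replicates 3 and 4 had counts, 29 and 57, or 0.704 and 1.13 CPM. The blood libraries held 4 counts in 3 sham libraries and 1 count in 1 tumor mouse library.

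Slco2a1 was highest in the tumor. Tumor replicates 1, 2, 3 and 5 had 13.4, 9.92, 23.1 and 20.3 CPM, a mean of 16.7 ± 6.07 (SD, n = 4). Liver replicates 1, 2 and 4 had 4.99, 1.96 and 3.21 CPM, and liver replicate 3 had none. Brain replicate 3 had 123 counts, or 2.38 CPM, and the other 3 brain libraries none. Tumor mouse blood had no count and sham blood 1. All 4 tumor libraries lay above every other library.

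Brain replicate 3 was the highest brain library for Slco2b1, the only one with Slco2a1, and the highest for Slco4a1. It was also the highest for Tmem119, a microglia marker, at 168.8 CPM against 75.1, 40.9 and 36.4 in replicates 2, 4 and 5. Its sum of 20 neutrophil markers was the lowest of the 4, 76330 CPM against 108100 to 131500. Without it the brain mean of Slco2b1 was 33.7 ± 10.2 CPM and that of Slco4a1 8.68 ± 1.08, in place of 12.1 ± 6.96 (SD, n = 3 and n = 4). Of 16 microglia markers, 13 were called higher in brain libraries than in tumor mouse blood, beside 3.56% of all genes. Of the same markers, 11 were called higher in tumor libraries and 5 in liver libraries, beside 13.3% and 3.98% of all genes. Their summed level was 3359 to 7975 CPM in the brain, 3493 to 4879 in the tumor, 3628 to 4542 in the liver and 4792 to 6262 in tumor mouse blood, and all of them had counts in the brain libraries. Selplg, 1 of these markers, was most of the sum in tumor mouse blood, with a mean of 4585 of 5461 CPM. Its mean was 2566 CPM in the brain, 2419 in the liver and 654.9 in the tumor. Tmem119 was at 8.37 to 46.2 CPM in the tumor, 1.89 to 11.6 in the liver and at most 1.53 in tumor mouse blood. P2ry12, the other defining microglia marker, was at 87.6 to 300.4 CPM in the brain and 81.4 to 138.9 in tumor mouse blood, which overlapped. It was at 46.1 to 95.5 CPM in the tumor and 33.4 to 59.4 in the liver. The part of these cells in Slco2b1 and Slco2a1 was not tested.

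**Figure D3:**
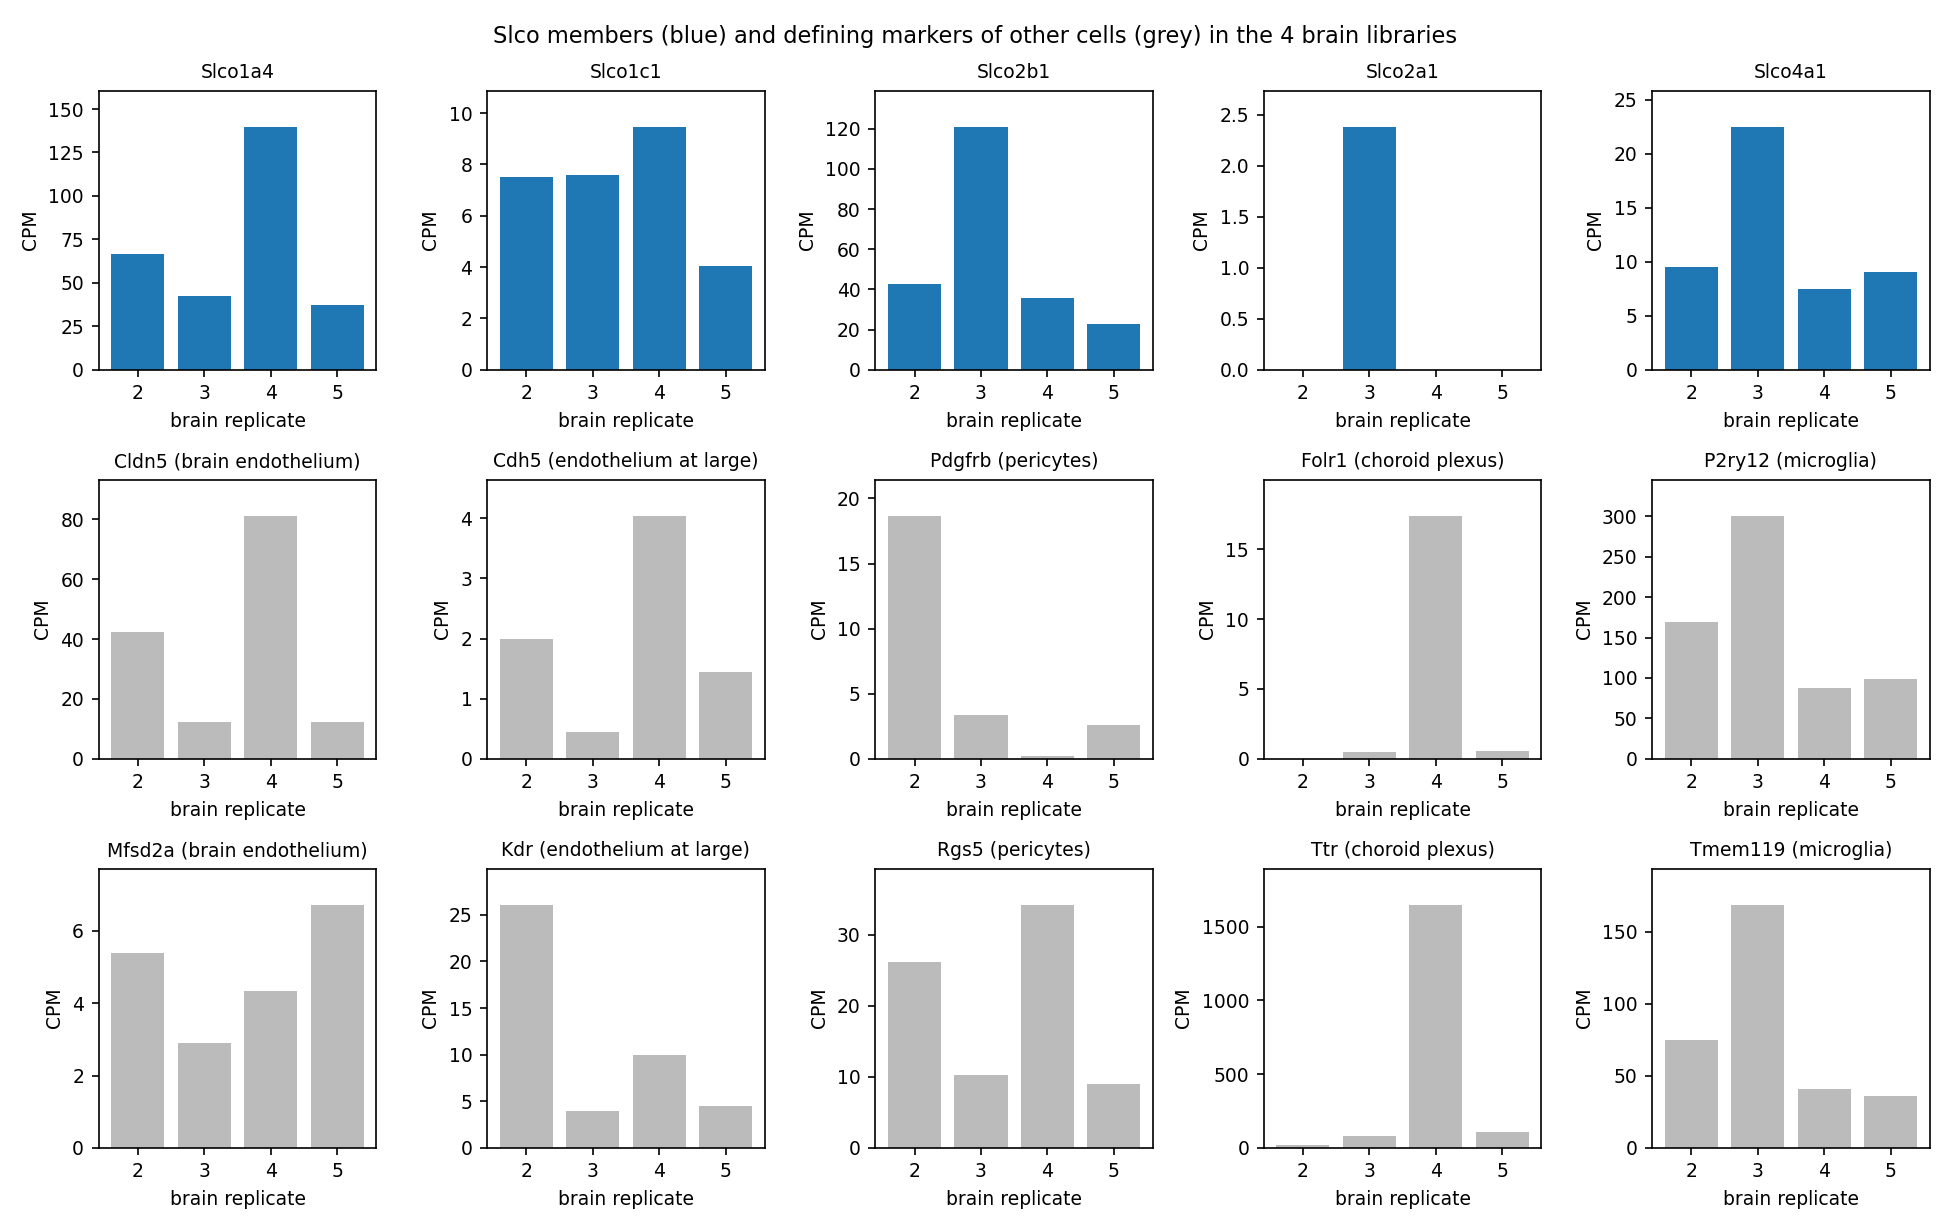
CPM (linear axes from 0, 1 scale per panel) of 5 members in blue and of the 2 defining markers of each of 5 other cell types in grey in brain replicates 2, 3, 4 and 5. Slco1a4, Slco1c1, Cldn5, Cdh5, Rgs5, Ttr and Folr1 are highest in replicate 4, whereas Mfsd2a is highest in replicate 5 and Kdr and Pdgfrb in replicate 2; Slco2b1, Slco2a1, Slco4a1, Tmem119 and P2ry12 are highest in replicate 3.

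Slco4c1 had the highest level per length of the 7 members in the blood, brain and liver. In the brain it was at 109.6, 117.0, 109.8 and 137.4 CPM in replicates 2, 3, 4 and 5, a mean of 118.4 ± 13.1 (SD, n = 4). In tumor mouse blood it was at 63.9, 98.2, 89.2 and 41.8 CPM, and in sham blood at 79.2, 58.7, 44.1 and 40.3. Liver replicates had 42.8, 45.2, 58.2 and 30.3 CPM, and tumor replicates 8.27, 12.5, 15.2 and 19.7. The order of the means was brain, tumor mouse blood (73.3 ± 25.5), sham blood (55.6 ± 17.6), liver (44.1 ± 11.4) and tumor (13.9 ± 4.81; SD, n = 4 each). The brain and the tumor did not overlap with any other group, whereas both blood groups and the liver overlapped with each other. The brain libraries differed less among themselves for this gene than for any other member, by 1.25 times between the highest and the lowest, against 3.73 times for Slco1a4 and 5.34 times for Slco2b1. Panct2, its antisense neighbor, was at 13.5 ± 3.87 CPM in the brain, 8.81 ± 2.09 in tumor mouse blood and 1.40 ± 1.22 in the tumor (SD, n = 4 each).

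Slco4a1 ran nearly the other way. Tumor replicates 1, 2, 3 and 5 had 53.3, 57.8, 49.8 and 43.8 CPM, a mean of 51.2 ± 5.90 (SD, n = 4). The liver followed with 43.0, 25.5, 31.2 and 13.6 CPM in replicates 1 to 4, and sham blood with 11.2, 26.4, 19.5 and 35.1. Tumor mouse blood had 14, 14.4, 9.35 and 9.13 CPM, and brain replicates 2 to 5 had 9.52, 22.5, 7.46 and 9.05. The tumor stood above every other library. Liver, sham blood, brain and tumor mouse blood overlapped, and the means of the last 2 were 12.1 ± 6.96 and 11.7 ± 2.87 CPM (SD, n = 4 each).

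Slco3a1 varied least between groups. Sham blood libraries had 91.0, 78.0, 59.0 and 64.1 CPM, and tumor mouse blood libraries 59.3, 56.7, 57.2 and 41.6. The means were 73.0 ± 14.4 in sham blood, 53.7 ± 8.17 in tumor mouse blood, 46.7 ± 6.34 in the liver, 46.4 ± 7.58 in the brain and 33.6 ± 8.97 in the tumor (SD, n = 4 each). Tumor libraries ranged from 24.6 to 45.8 CPM. Each group overlapped with its neighbor in this order.

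The first comparison asked which genes of brain neutrophils differ from those of the circulation, the tumor and the liver. The members were picked with these values known, so they are given as a description with no p-value. Against tumor mouse blood, Slco1a4, Slco1c1 and Slco2b1 were called higher, 3 of 7 members, and none lower. With the sequencing lane as a term Slco1c1 was not called and Slco2a1 was. A gene was called at an adjusted p under 0.05, and of all 28762 genes tested 3.56% were called higher and 1.41% lower. Against the tumor, Slco1a4, Slco1c1 and Slco4c1 were called higher and Slco4a1 lower, with 8.54% and 6.87% of all genes. Against the liver, Slco1a4, Slco1c1, Slco2b1 and Slco4c1 were called higher and none lower, with 1.05% and 1.57% of all genes. The log2 difference of Slco4c1 was 3.09 ± 0.30 (SE) against the tumor, 1.42 ± 0.29 against the liver and 0.69 ± 0.28 against tumor mouse blood, where it was not called. Without brain replicate 3, the counts of members called in either direction were 3, 5 and 6, and without brain replicate 4 they were 3, 4 and 4. The calls added without replicate 3 were all of members lower in the brain. They were Slco2a1 against the tumor (log2 difference -12.78), and Slco2a1 (-10.02) and Slco4a1 (-1.72) against the liver. Over all genes, 885, 2105 and 294 were called higher and 511, 2070 and 521 lower without replicate 3. Without replicate 4 these were 693, 2219 and 138 higher and 264, 1836 and 285 lower.

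Tumor libraries were next compared with tumor mouse blood, to place the members outside the brain. The members had been selected on levels in the same libraries. Slco2b1 has nearly all of its counts in the brain and tumor libraries, and Slco2a1 has 4470 of 5105 in the tumor libraries. The values of these 2 genes outside the brain are therefore also a description, with no p-value. For the other members, the adjusted p-values here and in the comparisons below are values of the fit over all genes. They do not test members chosen without these data. In edgeR's quasi-likelihood test with Benjamini-Hochberg adjustment, Slco2a1, Slco2b1 and Slco4a1 were called higher and Slco4c1 and Slco3a1 lower. Over all genes, 13.3% were called higher and 10.3% lower. Slco2a1 was at least 1040-fold higher in the tumor. The ratio for Slco2b1 was 2560, with a 95% counting interval of 460 to 101000. Slco4a1 was 4.37-fold higher, a log2 difference of 2.13 ± 0.39 (SE, adjusted p = 0.000258), with all 4 tumor libraries above all 4 blood libraries. Slco4c1 was 5.26-fold lower, a log2 difference of -2.40 ± 0.30 (SE, adjusted p = 3.06e-06), also with no overlap.

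Slco3a1 fell by 0.67 on the log2 scale (SE 0.20, adjusted p = 0.0181), and its libraries overlapped. This call was lost without tumor mouse blood replicate 1 (adjusted p = 0.0529), tumor replicate 1 (0.0869) or tumor replicate 3 (0.069), with the compared groups alone (0.0649) and with the sequencing lane as a term (0.231). Over the alternatives its adjusted p ranged from 0.00537 to 0.231. When DESeq2's size factors replaced TMM, the median over genes of at least 1 CPM shifted from 0.13 to 0.27 on the log2 scale in this comparison, and the adjusted p for Slco3a1 was 0.0544. The directions of the other 4 did not depend on this scaling. Other markers moved with them: 14 of 18 macrophage markers, 10 of 12 fibroblast markers and 15 of 16 epithelial tumor markers were called higher in the tumor, and 14 of 20 neutrophil markers lower. Summed macrophage markers were 6637 to 10320 CPM in the tumor and 1085 to 1421 in tumor mouse blood, and all of them had counts in the tumor libraries. The part of these cells in the members' differences was not tested.

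In the liver, 2 members were called higher than in tumor mouse blood and none lower, with 3.98% and 1.2% of all genes. Slco2a1 was at least 168-fold higher and the ratio for Slco2b1 was 85, with a 95% counting interval of 15.3 to 3360. Both rested on the liver libraries with counts, 3 for Slco2a1 and 2 for Slco2b1, and the groups overlapped at 0. Neither was called without tumor mouse blood replicate 1 or 3, Slco2a1 was not called without replicate 2, and Slco2b1 was not called without liver replicate 4 or with the compared groups alone. Slco4a1 had a log2 difference of 1.27 ± 0.38 (SE) that did not pass the test (adjusted p = 0.0521), and Slco4c1 one of -0.73 ± 0.28 (adjusted p = 0.152). The adjusted p of Slco4a1 was below 0.05 without sham blood replicate 1, brain replicate 3 or liver replicate 4, at 0.0336, 0.0314 and 0.0313. Over the alternatives it ranged from 0.0118 to 0.248. Stab2, of liver sinusoidal endothelium, was at 2.75, 2.21, 0.121 and 2.63 CPM in liver replicates 1 to 4. Clec4g, of the same cells, was at 7.40, 3.01, 2.72 and 6.97 CPM. Both were lowest in replicate 3, the liver library without Slco2a1. In the tumor, where Slco2a1 was highest, Stab2 had a median of 0 CPM and a maximum of 1.94. Clec4g had a median of 0.0073 CPM there and a maximum of 1.80. The 10 markers of liver sinusoidal endothelium summed to 256.4, 207.5, 284.9 and 333.4 CPM in liver replicates 1 to 4, lowest in replicate 2. The sums in tumor mouse blood were 48.0 to 231.4 CPM, 1 of 10 markers was called higher in the liver, and 1 had no count there. Their part in Slco2a1 was not tested.

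The blood of tumor mice was compared with that of sham mice to ask how circulating neutrophils differ in mice with a tumor. By edgeR, 0 of 7 members were called, with 1.63% of all genes called higher and 1.69% lower. At an unadjusted p under 0.05 there were 2, Slco4a1 and Slco3a1. Slco4a1 was at 11.7 ± 2.87 against 23.0 ± 10.2 CPM (SD, n = 4 each), a log2 difference of -0.97 ± 0.37 (SE, adjusted p = 0.187). Slco3a1 had a log2 difference of -0.44 ± 0.20 (SE, adjusted p = 0.282). Slco4c1 had one of 0.40 ± 0.28 (SE, adjusted p = 0.539). DESeq2 called 1 member, Slco2a1, which had 1 count in sham blood and 0 in tumor mouse blood. The groups overlapped for all 7 members.

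**Figure D4:**
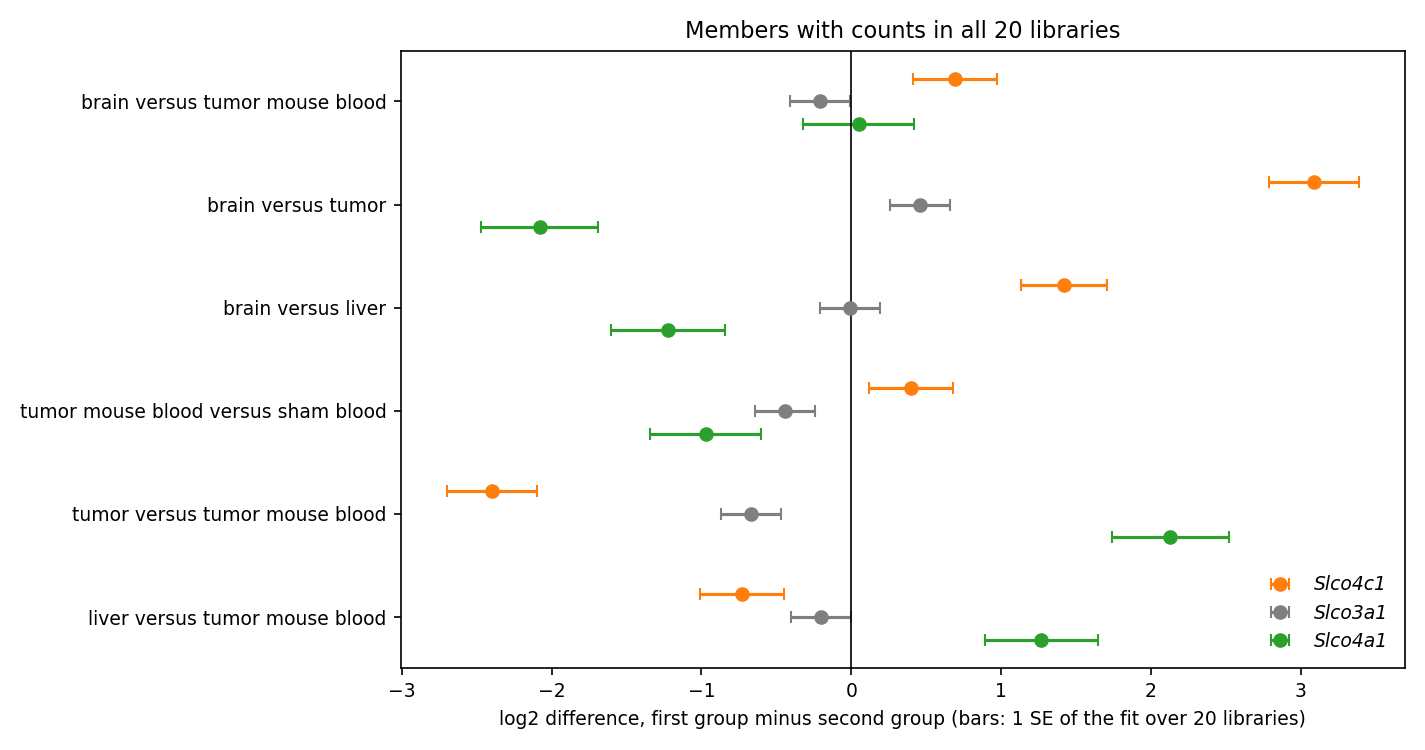
Log2 difference (first group minus second, horizontal axis) for the 3 members with counts in all 20 libraries in each of the 6 comparisons; bars are 1 SE of the fit. Slco4c1 and Slco4a1 lie on opposite sides of 0 against the tumor, at 3.09 and -2.08 for the brain, while Slco3a1 stays within 0.67 of 0 throughout.

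The pathways that share substrates with these carriers were counted from lists of genes that hold no Slco member. Of 23 tested genes of prostaglandin synthesis, signaling and breakdown, 11 rose and 1 fell in the tumor against tumor mouse blood, beside 13.3% and 10.3% of all genes. The median log2 difference of the list was 1.08, beside 0.00 over all genes tested. Ptgs2, the inducible cyclooxygenase, was at 1633 ± 425.1 CPM in the tumor and 4.08 ± 3.15 in tumor mouse blood (SD, n = 4 each), a log2 difference of 8.64 ± 0.54 (SE, edgeR adjusted p = 9.58e-10). Ptgs1, the constitutive cyclooxygenase, rose by 2.04 (adjusted p = 7.13e-06), and Ptger2, a prostaglandin E2 receptor, fell by 2.13 (adjusted p = 5.85e-07). In the liver 5 of 23 rose and 1 fell against tumor mouse blood, beside 3.98% and 1.2% of all genes, and Ptgs2 reached 2256 ± 445.3 CPM (SD, n = 4). In the brain 6 rose and 1 fell against tumor mouse blood, beside 3.56% and 1.41% of all genes, and Ptgs2 was at 663.8 ± 301.0 CPM (SD, n = 4). For brain against tumor 1 gene of this list was called higher and 5 lower, beside 8.54% and 6.87% of all genes. In tumor mouse blood against sham blood none rose and 2 fell, beside 1.63% and 1.69% of all genes. These were Ptgs2, from 81.7 ± 17.2 CPM (SD, n = 4; edgeR adjusted p = 4.38e-06), and Ptgdr, a prostaglandin D2 receptor (adjusted p = 0.0279).

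Of 16 tested thyroid hormone genes other than the members, 3 rose in brain libraries relative to tumor mouse blood and none fell, beside 3.56% and 1.41% of all genes. The median log2 difference over the list was 0.20. Among the 3 that rose were Ttr (edgeR adjusted p = 2.7e-05) and Slc7a8, an amino acid carrier that also takes thyroid hormones (adjusted p = 0.00432). In the tumor 2 rose and 3 fell, beside 13.3% and 10.3% of all genes. Among those that fell was Ncor1, a corepressor of nuclear receptors, at a log2 difference of -1.47 (adjusted p = 7.6e-06). In tumor mouse blood against sham blood 2 rose, beside 1.63% of all genes. Slc7a5, a large amino acid carrier, rose by 2.99 (edgeR adjusted p = 0.000101) and Klf9, a thyroid hormone target gene, by 3.81 (adjusted p = 0.00713).

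Of 12 ABC exporters of organic anions and drugs, which pump such substrates out of cells, 2 rose in brain libraries relative to tumor mouse blood. Of all genes 3.56% were called higher there. The 2 were Abcc5 (log2 2.15, edgeR adjusted p = 0.0251) and Abcb1a (adjusted p = 0.00226). Abcb1a, the P-glycoprotein of the blood-brain barrier, was at 15.1 ± 8.44 CPM in the brain, 28.5 ± 16.3 in the tumor and without counts in tumor mouse blood (SD, n = 4 each). In the tumor 4 rose and 1 fell against tumor mouse blood, beside 13.3% and 10.3% of all genes. Among those that rose was Abcc3, at 49.5 ± 28.2 CPM against 2.92 ± 2.63 (SD, n = 4 each; edgeR adjusted p = 0.00102). Between the blood groups none of the 12 was called. Among 17 tested Slc22 and Slc10 carriers, another pair of organic anion families, 1 rose in the brain against tumor mouse blood, beside 3.56% of all genes. It was Slc22a17 (adjusted p = 2.12e-05). Slc22a8, an organic anion transporter of brain endothelium and choroid plexus, was called higher in brain libraries than in those of the tumor (adjusted p = 0.00795) and the liver (adjusted p = 0.0401), at 3.85 ± 3.17 CPM against no counts (SD, n = 4). Of 10 tested genes of steroid metabolism and conjugation, 2 rose in the brain against tumor mouse blood, beside 3.56% of all genes. Hsd11b1, which regenerates active glucocorticoid, rose by 1.70 (edgeR adjusted p = 0.00328), and Sult1a1, a sulfotransferase, by 3.17 (adjusted p = 0.0121). In the tumor 3 rose and 3 fell, beside 13.3% and 10.3% of all genes.

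The other 8 Slco genes had few counts or none. Slco5a1 had 136 counts in 3 sham blood libraries and 24 in 1 tumor library, at most 1.13 CPM. Slco1a6 had 16 counts, at most 4 in a library. The remaining 6, Slco1a1, Slco1a5, Slco1b2, Slco6b1, Slco6c1 and Slco6d1, had no counts in any of the 20 libraries. Slco1b2, a hepatocyte carrier, was thus not detected in the liver libraries, where Alb was at 7.52 to 23.2 CPM. A count of 0 over the 4 liver libraries allows a level of up to 0.0159 CPM.

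The genes most like each member were found by the Pearson correlation of log2(CPM + 1) over the 20 libraries, among 11140 genes and as a description. These values are not independent, since the libraries fall into 5 groups. Slco1a4 and Slco1c1 were each other's nearest gene (r = 0.995), followed for both by Ptn, a growth factor (0.993 and 0.987). The third genes were Apod, an apolipoprotein (0.987), for Slco1a4 and Atp1b2, a sodium pump subunit of glia (0.983), for Slco1c1. Slco2b1 was nearest to Dst (0.973), Hpgds, the prostaglandin D synthase of hematopoietic cells (0.951), and Ptprm (0.944). Slco2a1 was nearest to Tmem151a (0.968), Gjb1, a gap junction protein (0.953), and Acsbg1 (0.945). For Slco4c1 the nearest were Arl2bp (0.953), Mindy1 (0.95) and Fmo5 (0.945), and Fmo5 was at 100.0 CPM in the brain and 11.1 CPM in the tumor. Slco3a1 was nearest to Csnk1e (0.942), Cdk2ap2 (0.932) and Rin3 (0.907). Slco4a1 was nearest to Trap1, a mitochondrial chaperone (0.896), Exosc2, a subunit of the RNA exosome (0.894), and Igsf8 (0.891).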

How the data were processed

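Neutrophil RNA (250 pg per library) was amplified with SMART-Seq v4 and sequenced as single reads of 100 cycles, 4 libraries to a lane. The authors deposited raw counts per gene for 20 libraries and a second table of log2 values, the regularized log (rlog) transform of DESeq2. Build mm10 and DESeq2 are named in the submitters' processing notes. The aligner, the counter and the gene annotation were "not given in the sources used here". Of 51918 entries, 6 repeated genes were dropped. The members and gene lists were chosen with earlier results of these data known.

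Counts of all 20 libraries were fitted together with edgeR 4.0.16 (quasi-likelihood, TMM, R 4.3.3) over 28762 genes with at least 1 count, without a block. Adjusted p-values are Benjamini-Hochberg over all genes tested, and fold changes are from group means in CPM. The threshold was 0.05. The floor for a group at 0 was 3 counts over its libraries, and intervals are exact Poisson at 95%. The script was tested on simulated data. Genes named beside the members were, up to 4 called genes per list, taken by abundance, the defining markers, and the 3 genes most like each member. No 2 libraries within a group were duplicates. Gene positions, exon lengths and overlaps came from GENCODE M21. Alternatives were DESeq2 1.42.0, its size factors, filterByExpr, the compared groups alone, the lane as a term, a replicate block, an added fold threshold, the rlog values and each library left out. Some items withheld for evaluation are not reported here.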

Additional observations from a re-analysis of the deposited data

Results flagged for a closer look

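In 7 of the 35 sets of 4 libraries (7 members by 5 groups), 1 library stood apart from the other 3, with a gap to its nearest neighbor above Dixon's critical share of the range. For sets of 4 normally distributed values, chance gives this in about 1 of 20. Where only 1 library had counts the gap is always the whole range, so that rate does not apply. In 4 of the 7 the library held 1 to 3 counts and the others none. These were Slco1a4 in sham blood replicate 3 (0.05854 CPM), Slco2a1 in sham blood replicate 2 (0.01938 CPM), and both Slco1c1 and Slco2b1 in tumor mouse blood replicate 2 (0.02031 CPM each). Slco2a1 was at 2.379 CPM in brain replicate 3, from 123 counts, and at 0 in the other brain libraries. Slco4a1 was at 22.48 CPM in the same library, against 7.461 to 9.522 CPM in the other 3. Slco3a1 was at 41.55 CPM in tumor mouse blood replicate 4, against 56.72 to 59.27 CPM.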

How the results depend on the processing

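The number of members called was 3 to 4 for brain against tumor mouse blood when each library was left out in turn, 4 to 5 for brain against tumor, 4 to 6 for brain against liver, 4 to 5 for tumor against tumor mouse blood and 0 for the blood groups. For liver against tumor mouse blood it was 0 to 3, with 0 without tumor mouse blood replicate 1 or 3, and 1 without replicate 2. Over all genes this comparison called 1146 higher and 345 lower with all libraries. It called 746 and 257 without replicate 1, 781 and 250 without replicate 2, and 825 and 286 without replicate 3. DESeq2 called 1.0 member between the blood groups in place of 0. Over all genes it called more than edgeR, for example 2204 higher and 1165 lower in the brain against tumor mouse blood in place of 1023 and 405. With the replicate block the member counts were 3, 4, 4, 0, 5 and 2, the same as without it, and no other call changed. No source says that a shared number marks a shared mouse, and the correlations of deviations between libraries with the same number were mixed, so no block was used. They were -0.0764 to 0.155 between the blood groups, -0.0587 to 0.0528 for tumor and 0.0861 to 0.256 for liver against tumor mouse blood. For the brain they were 0.0397 to 0.139 with tumor mouse blood, 0.0707 to 0.207 with tumor and -0.00434 to 0.188 with liver. Own numbers correlated best in 3 of 4 pairs for liver and 0 of 3 for tumor against tumor mouse blood. For the brain, own numbers were best for replicates 2 and 4 with tumor mouse blood and with liver. With tumor they were best for replicates 2 and 5, and never for replicate 3. Between the blood groups, which came from different mice, they were best for replicates 1 and 4 and not for 2 and 3. The log2 difference of Slco4a1 for brain against tumor mouse blood was near 0 (0.05) and turned to -0.21 with the lane as a term and -0.04 in the rlog values. With each library left out it was -0.49 (without brain replicate 3) to 0.17. That of Slco3a1 for brain against liver (-0.01) turned to 0.02 with DESeq2 size factors, 0.02 in the DESeq2 test, 0.17 with the lane and 0.01 in the rlog values, and was -0.12 to 0.08 with each library left out. The cause was not tested. Counts of 0 to 4 in the blood limit the folds of Slco1a4, Slco1c1, Slco2a1 and Slco2b1.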
